A study of Mus musculus with 42 samples.

Results

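The set described here holds 10 genes of intestinal absorptive cells (enterocytes) and liver cells (hepatocytes), chosen by name as the table rows whose Ensembl identifier maps to Hnf4a, Hnf4g, Apoa1, Apoa4, Apob, Vil1, Cdhr5, Muc13, Reg3g and Spink1. The choice was made with earlier results of these data known. The genes are 10 of the 53465 counted, and all 10 passed the filter on low counts that left 23040 genes. The study sorted mouse thymic epithelial cells (TECs, the stromal cells that instruct developing T cells), 200 cells to a library, to ask what deletion of the transcriptional cofactor gene Ski in these cells changes. The 3 sorted subsets, all Epcam+CD45-, were cortical TECs (cTECs, UEA-Ly51+), MHCII-low medullary TECs (mTECs, UEA+Ly51loMHCIIlo) and MHCII-high mTECs (UEA+Ly51loMHCIIhi). Each subset came from 3 genotypes, named Control, KO and Ski flox Control in the labels, where KO stands for a TEC-specific deletion of SKI. The Cre driver, strain, age and sex, and which libraries share a mouse, are not given in the labels, so p-values measure the spread between libraries, which may be partly technical.

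Medullary TECs are known for transcribing genes of many peripheral tissues, which exposes developing T cells to self antigens. The factor AIRE drives part of this in the MHCII-high cells, and in the mouse some medullary cells also take up whole programmes of other tissues, among them an enterocyte and hepatocyte programme that depends on the HNF4 factors. HNF4A and HNF4G are paralogous nuclear receptors that bind the same DNA motif. Across gut and liver, factors of this family drive genes of lipoprotein secretion, of the brush border (the microvilli of the absorptive surface) and of mucosal defence. The 2 factors need not share these roles in each organ.

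Of 42 libraries, 40 were used, with 3217251 to 7068077 counts each, and 2 libraries under 100000 counts (MHCII-low and MHCII-high mTEC Control replicate 2) were left out. This left 5, 4 and 4 Control libraries in cTECs, MHCII-low and MHCII-high mTECs, 7 KO libraries in each and 2 Ski flox Control libraries in each. Levels are given in CPM, read counts scaled by normalised library size. Ski itself was 16.8 ± 8.97 CPM (SD, n = 5) in Control and 16.4 ± 16.4 (n = 7) in KO cTECs, 24.7 ± 15.2 (n = 4) and 6.52 ± 5.95 (n = 7) in MHCII-low mTECs, and 13.4 ± 6.57 (n = 4) and 6.16 ± 6.48 (n = 7) in MHCII-high mTECs. Counts over a whole gene also hold reads from undeleted exons, so this checks the genotype only weakly. Control and KO libraries overlapped in all 3 subsets, so the levels did not separate these genotypes. In each medullary subset the highest KO library stood at 16.9 CPM. The lowest Control library was at 7.83 CPM in MHCII-low and 8.21 CPM in MHCII-high mTECs. Ski flox Control was 3.52 ± 1.16 CPM (SD, n = 2) in cTECs. It was 32 ± 0.632 CPM (n = 2) in MHCII-low and 6.66 ± 2.94 CPM (n = 2) in MHCII-high mTECs. Psmb11 and Prss16, defining cTEC genes, reached medians of 387 and 638 CPM in cTECs, but stood at 6.51 and 3.90 CPM in the library labelled cTEC KO replicate 5. Aire ran from 279 to 1411 CPM in MHCII-high mTECs and from 4.06 to 510.3 CPM in MHCII-low mTECs. Ccl21a, a chemokine that marks many MHCII-low mTECs, was at 0 in 8 of 13 MHCII-low libraries and at most 1.23 CPM in the others. It was at most 0.138 CPM in cTECs and at 0 in all MHCII-high libraries. Summed with the other MHCII-low markers used (Krt5, Krt14, Pdpn and Itgb4), levels were 91.4 to 1223 CPM in MHCII-low mTECs (median 260). The same sum was 167 to 732 CPM in MHCII-high mTECs (median 426.5) and 7.07 to 335 CPM in cTECs (median 72.3). Library numbers split the kept libraries into 19 called early and 21 called late. No label names this split, and its boundary was set after correlations between libraries had been seen. All Ski flox Control libraries are late. H2-Aa, an MHCII gene, went against the gate in 4 late libraries labelled MHCII-low: KO replicates 6 and 7 stood at 8602 and 6728.5 CPM and both Ski flox Control libraries at 6804 and 8846 CPM, above the other 9 MHCII-low libraries (2080 to 5459) and above all 4 MHCII-high Control libraries (5082 to 6285). The KO results that rest on them are given with and without them, and the Ski flox Control group of MHCII-low mTECs holds no other library. Among cTECs, Krt8, an epithelial keratin gene, was lower in late than in early libraries (104 to 384 against 553 to 2414 CPM). H2-Aa was higher in late ones (4994 to 8071 against 1853 to 4780 CPM). Ptprc, the CD45 gene, was 528 to 938 against 150 to 708 CPM, and Psmb11 6.51 to 419 against 354 to 1962 CPM. Results within each set are given with the comparisons below.

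Over all 10 genes together, transcripts were plentiful in both medullary subsets and scarce in the cortex. In a bulk library of sorted cells, fewer cells of a type and less RNA per cell cannot be told apart. Their summed level ran from 0 to 374 CPM in cTECs (median 13.9, n = 14), from 56.5 to 7680 CPM in MHCII-low mTECs (median 2281, n = 13) and from 982.5 to 4187 CPM in MHCII-high mTECs (median 2040.1, n = 13). The number of the 10 genes with at least 1 count was 0 to 5 in a cTEC library, 7 to 10 in an MHCII-low and 8 to 10 in an MHCII-high library. These 3 ranges were the same when each library was thinned to 3000000 counts. Reg3g gave most of the sum, a median of 79.5% in MHCII-low and 79.8% in MHCII-high mTECs, and without it the sums were 0 to 80.0, 35.9 to 967 and 171 to 747 CPM in the same order of subsets. Aire is given beside the sum for some MHCII-low libraries, and their relation was not tested. Control replicate 3 had the highest sum, 7680 CPM, with Aire at 207 CPM. KO replicate 3 had the highest Aire, 510.3 CPM, and a sum of 2518 CPM. Control replicates 4 and 5 had Aire at 4.06 and 4.70 CPM and sums of 2281 and 1766 CPM. KO replicates 6 and 7 had Aire at 28.7 and 5.06 CPM and sums of 375 and 56.5 CPM. The Ski flox Control libraries had Aire at 31.8 and 27.2 CPM and sums of 91.0 and 182 CPM.

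**Figure D1:**
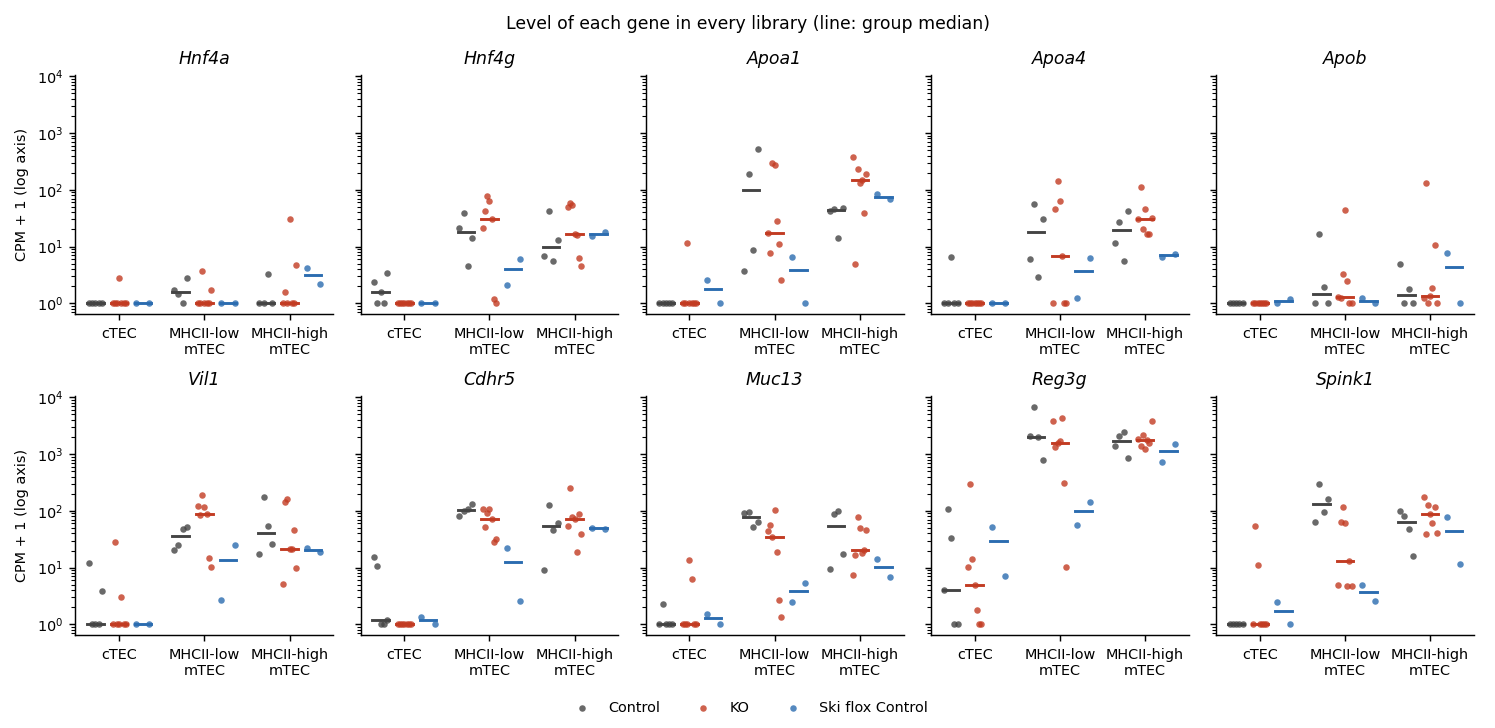
Level of each of the 10 genes in every library, as CPM + 1 on a log axis, by sorted subset and genotype; points are libraries and lines group medians. Most cTEC libraries lie at or near 0 (a plotted value of 1), while Reg3g reaches 6867 CPM in a medullary library and Hnf4a stays at or below 29.2 CPM.

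To set the genes beside each other, CPM was divided by the exon length of each gene in kb. Over the 26 medullary libraries the median order was Reg3g, Spink1, Apoa1, Cdhr5, Muc13, Apoa4, Vil1, Hnf4g, Apob and Hnf4a. Reg3g stood at 751 CPM per kb (range 4.45 to 3248) and was the highest of the 10 in 24 of 26 libraries. Spink1 followed at 83.0 (2.21 to 407), Apoa1 at 34.3 (0 to 416.5) and Cdhr5 at 23.7 (0.588 to 90.5). Spink1 was above Apoa1 in 15 and Apoa1 above Cdhr5 in 13 of the 26 libraries, so these neighbours were not separated by their spread, and neither were Muc13, Apoa4 and Vil1 (medians of 8.67, 8.59 and 6.86 CPM per kb). The steps from Cdhr5 down to Muc13 (higher in 22 libraries) and from Hnf4g (5.81) down to Apob (0.0189; higher in 25) were the clearer ones after Reg3g.

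**Figure D2:**
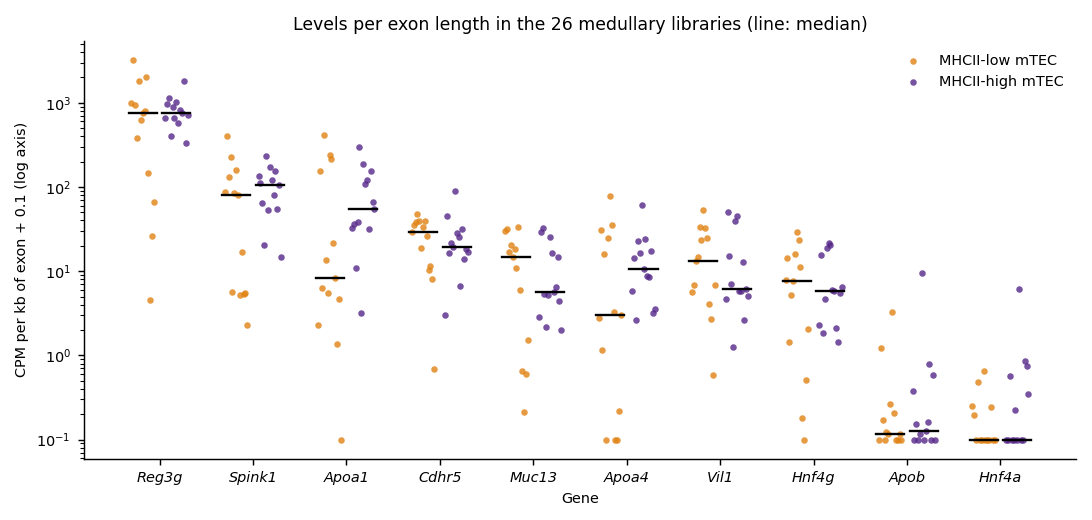
Levels per kb of exon in the 26 medullary libraries on a log axis, with 0.1 added; points are libraries, coloured by subset, and lines are medians. Reg3g lies highest at a median of 751 CPM per kb, 8 genes overlap their neighbours, and Hnf4a is at 0 in 15 libraries.

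The first comparison asks where in the thymus the genes are transcribed, medulla against cortex within each genotype. All 10 genes had a higher mean in both medullary subsets than in cTECs, in Control and in KO. Over all genes a positive change was fitted for 57.2% and 54.0% in MHCII-high and MHCII-low against cTEC Control and for 57.6% and 58.1% in KO. Called higher by edgeR's quasi-likelihood test with Benjamini-Hochberg adjustment over all 23040 genes (adjusted p under 0.05) were 3 of 10 in MHCII-high against cTEC Control (1.07% of all genes), 3 in MHCII-low against cTEC Control (0.703%), 7 in MHCII-high against cTEC KO (12.9%) and 6 in MHCII-low against cTEC KO (5.19%). None was called lower (0.0434%, 0.0694%, 1.82% and 0.49% of all genes). In Control the 3 were Apoa1, Muc13 and Spink1 in both subsets, and at an unadjusted p under 0.05 all 10 passed in both (21.2% and 17.9% of all genes), as did 9 in MHCII-high and 8 in MHCII-low KO (32.6% and 26.1%). Some of these rest on few reads: in MHCII-high Control, Hnf4a had 9 counts in 1 of 4 libraries and Apob 17 counts in 2 of 4. In MHCII-low Control they had 12 counts in 3 of 4 and 73 counts in 2 of 4 libraries. In KO, Hnf4g, Apoa1, Apoa4, Cdhr5 and Reg3g passed in both subsets, joined by Apob and Muc13 in MHCII-high and by Vil1 in MHCII-low mTECs; calls in either direction made up 14.7% and 5.68% of all genes. The median log2 ratio of group means over the 10 genes, with a group at 0 set to 3 counts over that group, was 4.41, 4.89, 6.08 and 5.61 in the 4 comparisons, against 0.31, 0.23, 0.33 and 0.32 over all genes.

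In the Control groups 6 of the 10 genes had MHCII-high levels above every cTEC library (6.8% of all genes) and 7 had MHCII-low levels above every cTEC library (5.08%). In KO these numbers were 4 (2.46%) and 1 (0.569%). With early libraries alone edgeR called 0, 0, 2 and 2 of the 10 higher in the 4 comparisons, in the order above (0.0199%, 0.00498%, 0.812% and 0.189% of all genes), and with late libraries alone 3, 4, 4 and 3 (0.618%, 1.42%, 2.43% and 1.21%). The means were higher in the medulla for all 10 in both sets, except that in the early Control comparison with MHCII-high mTECs it was 9 of 10, Hnf4a being at 0 on both sides. Of the markers of other cells that the gates could hold, 0 of 11 thymocyte and 0 of 5 B cell markers were called higher in any of the 4 comparisons. Summed thymocyte markers were 599.6 to 5458 CPM in cTECs, 76.7 to 3624 in MHCII-low and 11.8 to 1124 in MHCII-high mTECs, and summed B cell markers 105 to 15126, 133 to 17268 and 23 to 472 CPM. Of 12 myeloid markers (235 to 2812, 491 to 10195 and 964 to 3179 CPM in sum) 1 was called higher in each KO comparison and none in Control. Of 7 endothelial and 6 fibroblast markers none was called higher, and of 4 erythroid markers 1 in each KO comparison. Libraries also differed in the number of genes detected, 11084 to 17359 in cTECs, 13945 to 21447 in MHCII-low and 11989 to 20489 in MHCII-high mTECs. With that number as a term in the fit, 3, 4, 9 and 7 of the 10 were called (1.99%, 0.694%, 9.38% and 4.67% of all genes). Without the 4 libraries of highest B cell marker level (replicate 4 of cTEC and of MHCII-low Control, cTEC KO replicate 6 and MHCII-low KO replicate 7) the counts were 1, 2, 6 and 5 (0.394%, 0.197%, 6.87% and 2.97%). Without cTEC KO replicate 5, which went against its label, the KO counts were 6 and 5 (9.91% and 3.78%). Without MHCII-low KO replicates 6 and 7, whose H2-Aa went against theirs, 8 of the 10 were called in MHCII-low KO (7.53%), the 6 above with Apob and Muc13.

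**Figure D3:**
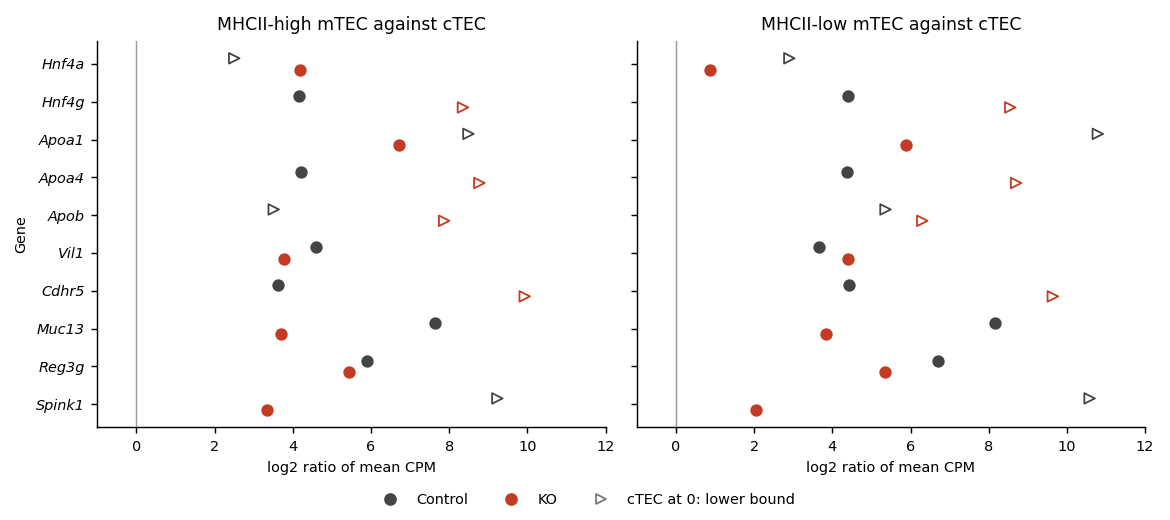
Log2 ratio of mean CPM, medullary subset over cTEC, for each of the 10 genes in Control (dark) and KO (red). Open triangles are lower bounds where every cTEC library was at 0, computed against 3 counts over the group. Every value is above 0, from 0.88 for Hnf4a in KO MHCII-low mTECs to a bound of 10.79 for Apoa1 in Control MHCII-low mTECs.

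Hnf4a and Hnf4g, the genes of the paralogous HNF4 factors, differed in how widely they were detected. Hnf4g (chromosome 3, 3508030 to 3658052, GRCm38, plus strand) had a count in 25 of 26 medullary libraries and Hnf4a (chromosome 2, 163506808 to 163572910, plus strand) in 11. Per kb of exon, Hnf4g was above Hnf4a in 24 of the 26 libraries and below it in 2. In cTECs, Hnf4g had a count in 3 of 14 libraries and Hnf4a in 1.

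Hnf4g stood at 5.75, 40.7, 4.55 and 12.1 CPM in the 4 MHCII-high Control libraries, at 20.1, 38.0, 3.59 and 13.3 CPM in the 4 MHCII-low Control libraries, and at 1.41, 0, 0.551, 0 and 2.48 CPM in the 5 Control cTEC libraries. All medullary Control libraries lay above all cortical ones. The log2 fold changes of 4.11 ± 1.43 (SE) and 4.36 ± 1.44 did not pass (edgeR adjusted p = 0.117 and 0.134). In KO it ran from 3.50 to 56.7 CPM (median 15.5, n = 7) in MHCII-high mTECs and from 0 to 75.8 CPM (median 29.5, n = 7) in MHCII-low mTECs, and all 7 KO cTEC libraries were at 0. That made its KO level at least 327-fold and at least 375-fold higher than in cTECs (edgeR adjusted p = 0.000379 and 0.000488), and both calls were kept when any 1 library was left out.

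Hnf4a was at 0, 0, 2.28 and 0 CPM in MHCII-high and at 0.737, 0.452, 0 and 1.83 CPM in MHCII-low Control mTECs, and at 0 in all 5 Control cTEC libraries. Its highest level was 29.2 CPM, in MHCII-high KO replicate 4, where the other 6 KO libraries ran from 0 to 3.69 CPM. It was called in none of the 4 comparisons, with edgeR adjusted p of 0.204, 0.22, 0.16 and 0.912.

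The apolipoproteins are the protein shells of lipoprotein particles. APOB is the scaffold of chylomicrons and of very low density lipoproteins, APOA1 the main protein of high density lipoproteins, and APOA4 an intestinal apolipoprotein that is made during fat absorption. Apoa1 and Apoa4 are neighbours on chromosome 9 (46228580 to 46230466 and 46240696 to 46243459, both plus strand) with 10229 bases between them, and Apob lies on chromosome 12 (7977648 to 8016835, plus strand).

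Apoa1 was at 0 in all 5 Control cTEC libraries. It stood at 40.5, 44.2, 13.4 and 47.2 CPM in MHCII-high and at 2.70, 189.9, 7.65 and 515 CPM in MHCII-low Control mTECs. It was thus present in every medullary Control library, and its MHCII-low levels were spread more widely (SD 240.3 against 15.5 CPM). It was at least 360.3-fold higher in MHCII-high and at least 1772-fold higher in MHCII-low than in cTEC Control (edgeR adjusted p = 0.0298 and 0.0131). The MHCII-low bound is 661.5-fold without Control replicate 5. The MHCII-high call was lost when any one of the 5 Control cTEC libraries was left out (adjusted p = 0.0546 to 0.0768), and the MHCII-low call held in each such fit. In KO, Apoa1 ran from 3.86 to 369 CPM (median 149, n = 7) in MHCII-high and from 1.57 to 293 CPM (median 16.6, n = 7) in MHCII-low mTECs, while 1 KO cTEC library had 10.6 CPM and 6 were at 0. Both log2 fold changes, 6.72 ± 1.56 and 5.88 ± 1.5 (SE), passed (edgeR adjusted p = 0.00767 and 0.0213) and did so without any 1 library.

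Apoa4 was at 10.4, 26.1, 4.55 and 41.4 CPM in MHCII-high and at 4.91, 55.6, 1.91 and 29.0 CPM in MHCII-low Control mTECs, and at 0 in 4 of 5 Control cTEC libraries, the other holding 5.51 CPM. That one cTEC library lay inside the medullary range. The log2 fold changes of 4.17 ± 1.82 and 4.32 ± 1.83 (SE) did not pass (edgeR adjusted p = 0.184 and 0.211). In KO all 7 cTEC libraries were at 0, and Apoa4 ran from 15.3 to 111 CPM (median 29.5, n = 7) in MHCII-high and from 0 to 139.8 CPM (median 5.71, n = 7) in MHCII-low mTECs. It was at least 437-fold and at least 416-fold higher than in KO cTECs (edgeR adjusted p = 0.00283 and 0.00512), and both calls held without any 1 library. The MHCII-low bound is 217-fold without KO replicate 3.

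Apob was carried by few libraries. Among MHCII-high KO libraries it reached 131 CPM in replicate 2 and 9.62 CPM in replicate 6, and the other 5 lay between 0 and 0.882 CPM. Among MHCII-low KO libraries it reached 43.7 CPM in replicate 4 and at most 2.29 CPM in the other 6. All 12 Control and KO cTEC libraries were at 0. The MHCII-high KO level was at least 233-fold above cTECs (edgeR adjusted p = 0.0214), but at least 21.2-fold without replicate 2, where the call was lost (adjusted p = 0.0511). The other 3 comparisons did not pass (edgeR adjusted p = 0.207, 0.174 and 0.0519).

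Vil1, Cdhr5 and Muc13 belong to the apical surface of enterocytes. Villin (Vil1, chromosome 1, 74409376 to 74435559, plus strand) bundles the actin core of microvilli, CDHR5 (Cdhr5, chromosome 7, 141269083 to 141276786, minus strand) is a protocadherin that links microvillus tips, and MUC13 (Muc13, chromosome 16, 33794037 to 33819934, plus strand) is a transmembrane mucin.

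In Control, Cdhr5 stood at 7.94, 124, 44.3 and 59.7 CPM in MHCII-high mTECs, at 80.1, 96.7, 105 and 131 CPM in MHCII-low mTECs, and at 14.3, 9.66, 0, 0 and 0.177 CPM in cTECs. The 4 MHCII-low libraries lay above all cTEC libraries, and the lowest MHCII-high library lay inside their range. Its log2 fold changes of 3.6 ± 1.11 and 4.41 ± 1.14 (SE) did not pass (edgeR adjusted p = 0.0886 and 0.0598). In KO it ran from 18.1 to 248 CPM (median 70.1, n = 7) in MHCII-high and from 27.6 to 107 CPM (median 71.3, n = 7) in MHCII-low mTECs. All 7 KO cTEC libraries were at 0, so that no medullary library overlapped them. It was at least 974-fold and at least 799-fold higher (edgeR adjusted p = 2.07e-05 and 3.04e-05), the smallest adjusted p of the 10 genes in both comparisons, and both calls held without any 1 library.

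Muc13 stood at 8.49, 88.3, 97.4 and 16.2 CPM in MHCII-high and at 91.6, 96.1, 51.2 and 62.1 CPM in MHCII-low Control mTECs, and at 0 in 4 of 5 Control cTEC libraries, the other holding 1.32 CPM. The groups did not overlap. Its fold changes on the log2 scale, 7.45 ± 1.78 and 7.96 ± 1.82 (SE), passed (edgeR adjusted p = 0.0315 and 0.0281). The MHCII-high call was lost without cTEC Control replicate 1, 3, 4 or 5 or MHCII-high Control replicate 3 or 4 (adjusted p = 0.0579 to 0.0926), and the MHCII-low call without MHCII-low Control replicate 1 or cTEC Control replicate 3, 4 or 5 (0.0558 to 0.0961). In KO it ran from 6.29 to 77.5 CPM (median 19.4, n = 7) in MHCII-high and from 0.349 to 101 CPM (median 33.2, n = 7) in MHCII-low mTECs, against 12.6, 5.20 and 5 values of 0 CPM in cTECs. The MHCII-high log2 fold change of 3.66 ± 1.24 passed (edgeR adjusted p = 0.0433), although not in 9 of 14 fits that left out 1 library (0.0523 to 0.0683), those without cTEC KO replicate 1, 2, 3, 5, 6 or 7 or MHCII-high KO replicate 3, 4 or 7. The MHCII-low change of 3.80 ± 1.25 did not pass (0.0591).

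Muc13 is shown because its second promoter window was the only one of the 10 windows found for 8 of the genes that holds the HNF4 letters CAAAGTC, which occur on either strand of 4.44% of all promoter windows. The letters lie 184 bases before the start, in reverse complement and in capitals in the sequence. The stretch is chr16:33794239-33794366, plus strand, RefSeq GRCm38.p6, cut to bases outside annotated exons. The CDX letters TTTATGG (2.75% of all windows) were in none of the 10 windows.
Muc13 second promoter window: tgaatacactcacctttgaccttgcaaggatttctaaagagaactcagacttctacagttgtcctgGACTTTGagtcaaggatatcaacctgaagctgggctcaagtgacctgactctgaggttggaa

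Vil1 stood at 16.4, 178, 53.9 and 24.8 CPM in MHCII-high and at 19.7, 24.0, 46.4 and 51.4 CPM in MHCII-low Control mTECs, against 11.3, 0, 0, 0 and 2.83 CPM in cTECs. No library of one compartment reached the other. Changes of 4.58 ± 1.67 and 3.64 ± 1.61 (log2, SE) did not pass (edgeR adjusted p = 0.126 and 0.223). In KO it ran from 4.12 to 158 CPM (median 20.1, n = 7) in MHCII-high and from 9.24 to 187 CPM (median 88.4, n = 7) in MHCII-low mTECs, with 26.9, 2.08 and 5 values of 0 CPM in cTECs. The MHCII-low change of 4.42 ± 1.38 passed only just (edgeR adjusted p = 0.0499) and was not called in 11 of 14 fits that left out 1 library (0.0562 to 0.0825), that is, without any MHCII-low KO replicate from 1 to 5 or any cTEC KO replicate other than 2. The MHCII-high change of 3.78 ± 1.34 did not pass (0.051). Vil1 overlaps Usp37 on the other strand, at a mean of 24.3 CPM against 38.3 for Vil1 over all libraries, and these counts carry no strand.

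Reg3g and Spink1 encode secreted proteins. REG3G is a lectin that enterocytes and Paneth cells release against Gram-positive bacteria, and SPINK1 is a trypsin inhibitor known from pancreas and gut. Reg3g lies on chromosome 6 (78466269 to 78468872, minus strand).

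Reg3g was at 1393, 2051, 2428 and 854 CPM in MHCII-high and at 2102, 6867, 1968 and 799 CPM in MHCII-low Control mTECs. It was the one gene of the 10 with a count in 10 of 14 cTEC libraries, at 2.99, 107, 31.7, 0 and 0 CPM in Control. The lowest medullary Control library was above the highest Control cTEC library. The log2 fold changes of 5.89 ± 1.67 and 6.69 ± 1.73 (SE) did not pass (edgeR adjusted p = 0.0662 and 0.0548). In KO it ran from 1232 to 3827 CPM (median 1746, n = 7) in MHCII-high, from 9.41 to 4237 CPM (median 1579.8, n = 7) in MHCII-low and from 0 to 294 CPM (median 3.97, n = 7) in cTECs. The changes of 5.43 ± 1.37 and 5.35 ± 1.36 passed (edgeR adjusted p = 0.0117 and 0.0198) and did so without any 1 library. Its promoter is shown as that of the most abundant gene; capitals mark the TATA box letters TATAAA, 27 bases before the start, and their reverse complement 161 bases before it. These letters occur on either strand of 13.6% of all windows, and Apob's window also holds them. The stretch is chr6:78468875-78469124, minus strand, RefSeq GRCm38.p6.
Reg3g promoter: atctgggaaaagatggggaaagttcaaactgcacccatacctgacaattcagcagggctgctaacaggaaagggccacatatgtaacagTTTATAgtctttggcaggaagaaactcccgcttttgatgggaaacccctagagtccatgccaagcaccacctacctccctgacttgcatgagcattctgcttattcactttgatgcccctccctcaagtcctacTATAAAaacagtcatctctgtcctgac

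Spink1 (chromosome 18, 43728082 to 43737557, minus strand) was at 0 in all 5 Control cTEC libraries, at 99.1, 81.1, 46.6 and 15 CPM in MHCII-high and at 62.9, 296.5, 96.1 and 163 CPM in MHCII-low Control mTECs. It was at least 599-fold and at least 1534-fold higher than in Control cTECs (edgeR adjusted p = 0.0105 and 0.00913), and both calls held without any 1 library. The bounds were 471-fold without MHCII-high Control replicate 1 and 1065-fold without MHCII-low Control replicate 3. In KO it ran from 38.3 to 172 CPM (median 87.0, n = 7) in MHCII-high and from 3.69 to 115 CPM (median 12.1, n = 7) in MHCII-low mTECs, but 2 KO cTEC libraries held 53.0 and 10.1 CPM. Changes of 3.35 ± 1.23 and 2.05 ± 1.17 (log2, SE) did not pass (edgeR adjusted p = 0.0587 and 0.289). Both passed without cTEC KO replicate 2, the library with 53.0 CPM (0.00744 and 0.035), which also held the highest cTEC levels of Reg3g (294 CPM) and Vil1 (26.9 CPM).

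Between the 2 medullary subsets none of the 10 genes was called by edgeR, in Control or in KO, and none had an unadjusted p under 0.05 (7.47% of all genes in Control and 17.5% in KO). Over all genes 0 were called in Control (0.0%) and 4 in KO (0.0174%), that is, 0.00868% higher and 0.00868% lower. In Control, 9 of 10 fitted changes were below 0, with Apoa1 lowest at -2.30 ± 1.66 (log2, SE; edgeR adjusted p = 0.846), from 36.4 ± 15.5 CPM (SD, n = 4) in MHCII-high and 179 ± 240.3 (n = 4) in MHCII-low mTECs. In KO, 7 of 10 were above 0 (49.4% of all genes), with Hnf4a highest at 3.23 ± 1.93 (adjusted p = 0.432), which rests on the 29.2 CPM of 1 library. The ranges of each of the 10 genes overlapped between the subsets in both genotypes. Over all genes, 2.57% lay higher and 1.38% lower in MHCII-high mTECs without overlap in Control, and 0.169% and 0.0825% in KO. DESeq2 also called none of the 10 in either comparison (0.872% of all genes in Control and 2.4% in KO), and neither did limma voom (0.343% and 2.76%).

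Within libraries labelled MHCII-low the summed level of the 10 genes was low in 4 libraries, all of the late set. KO replicates 6 and 7 and both Ski flox Control libraries had sums of 375, 56.5, 91.0 and 182 CPM, against 1677 to 7680 CPM in the other 9 MHCII-low libraries. Reg3g was 9.41 to 309 CPM in the 4 and 799 to 6867 CPM in the 9, Muc13 0.349 to 4.37 against 17.6 to 101, and Cdhr5 1.61 to 31.4 against 50.9 to 131 CPM. The ranges of these 3 genes did not overlap between the 4 and the 9, while Apoa4, Apob, Hnf4a, Hnf4g, Apoa1, Vil1 and Spink1 overlapped. The share of all genes without overlap between the 4 and the 9 was not computed. The split is therefore not read as particular to these genes. The same 4 libraries were low in Krt8 (226 to 735 against 1368 to 2840 CPM), an epithelial keratin gene, and in Cldn7 (48.6 to 116 against 141 to 533), and high in H2-Aa (6728.5 to 8846 against 2080 to 5459) and Ptprc (601 to 773 against 4.18 to 643), the CD45 gene. Their summed thymocyte markers were 1563 to 3624 against 76.7 to 2938 CPM and their summed B cell markers 411 to 17268 against 133 to 6082 CPM. The part of these differences in the low levels of the 10 genes was not tested. The 4 libraries are grouped here by Krt8 and are described by their values only.

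**Figure D4:**
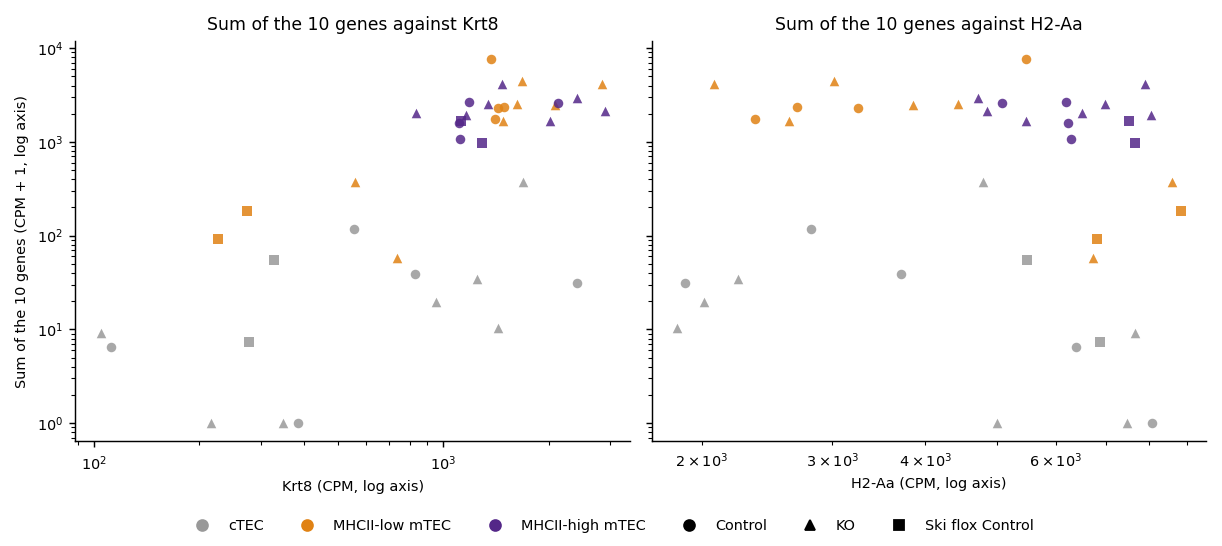
Sum of the 10 genes (CPM + 1) against Krt8 (left) and H2-Aa (right) in all 40 libraries, all axes logarithmic; colours are subsets and shapes genotypes. The 4 MHCII-low mTEC libraries with sums of 56.5 to 375 CPM lie at 226 to 735 CPM of Krt8 and at 6728.5 to 8846 CPM of H2-Aa, apart from the other 9.

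The second comparison asks what deletion of Ski changed. None of the 10 genes was called between KO and Control in cTECs, MHCII-low or MHCII-high mTECs by edgeR (0.0% of all genes in each), and limma voom called none (0.0434%, 0.0477% and 0.0608%). At an unadjusted p under 0.05 there were 6 of 10 in cTECs (10.6% of all genes), 0 in MHCII-low mTECs (7.11%) and 0 in MHCII-high mTECs (6.88%). DESeq2 called 4 of the 10 in cTECs (2.26% of all genes), 2 higher and 2 lower, and none in either medullary subset (0.994% in MHCII-low and 0.634% in MHCII-high). Fitted changes were above 0 for 6, 4 and 8 of the 10 in cTECs, MHCII-low and MHCII-high mTECs (39.0%, 48.0% and 46.2% of all genes). The median log2 ratio of means over the genes was 0.69 in cTECs (9 genes, Apob being at 0 on both sides), -0.60 in MHCII-low and 0.72 in MHCII-high mTECs, against -0.09, -0.01 and -0.06 over all genes.

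In MHCII-high mTECs the genotypes overlapped for all 10 genes. Over all genes, only 0.0694% lay higher and 0.33% lower in KO without overlap. Reg3g had means of 1974.5 ± 871 CPM in the 7 KO and 1681 ± 698 CPM (SD) in the 4 Control libraries, Cdhr5 84.6 ± 75.9 and 58.9 ± 48.4, Spink1 91.2 ± 49.8 and 60.4 ± 37.3, and Hnf4g 28.4 ± 23.7 and 15.8 ± 17.0 CPM. Each difference was smaller than the SD of the KO libraries. Apoa1 had means of 159 ± 122 and 36.4 ± 15.5 CPM, a log2 change of 2.13 ± 1.54 (SE; edgeR adjusted p = 1.0), with 5 of 7 KO libraries above all 4 Control libraries. KO had the higher mean for 7 of 10 genes among early libraries and for 5 of 10 among late ones.

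In MHCII-low mTECs Spink1 had the smallest p of the 10. Its means were 155 ± 103 CPM (SD) over 4 Control libraries and 37.1 ± 43.0 CPM over 7 KO libraries. The log2 change was -2.06 ± 1.28 (SE; edgeR adjusted p = 0.851). In KO and Control, Muc13 was 36.2 ± 35.3 and 75.2 ± 22 CPM, Cdhr5 69.4 ± 33.8 and 103 ± 21.5, and Vil1 88.0 ± 62.1 and 35.3 ± 15.9 CPM. The genotypes overlapped for every one of the 10 genes, and over all genes only 0.0608% lay higher and 0.256% lower in KO without overlap. KO replicates 6 and 7, whose H2-Aa went against their label, took part in these values: in the late set the summed level was 4481, 375 and 56.5 CPM in KO and 2281 and 1766 CPM in Control, and in the early set 1677 to 4178 CPM in KO and 2384 and 7680 CPM in Control. Among early libraries 7 of 10 means were higher in KO, and among late ones 3 of 10. Without KO replicates 6 and 7 edgeR again called none.

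In cTECs the 10 genes were at or near 0 in both genotypes, and single libraries decided most values. Cdhr5 had counts in 3 of 5 Control libraries, at 14.3, 9.66 and 0.177 CPM, and in none of 7 KO libraries. Control was thus at least 55.4-fold above KO, or at least 28.3-fold without Control replicate 1, and the gene had the smallest edgeR adjusted p of the 10, 0.0834. It passed with no count filter (0.0394), with a filter of 10 CPM in 5 libraries (0.0488) and without Control replicate 3, 4 or 5 (0.0163, 0.0247 and 0.024), and over all alternatives its adjusted p ran from 3.34e-07 with DESeq2 to 1.0 in the late set. Hnf4g likewise had counts in 3 of 5 Control and 0 of 7 KO libraries (at least 10.2-fold higher in Control, or at least 5.63-fold without Control replicate 5; adjusted p = 0.298), and Apoa4 in 1 of 5 and 0 of 7 (adjusted p = 0.329). In the other direction Spink1 was at 53.0 and 10.1 CPM in 2 of 7 KO libraries and at 0 in all Control libraries, at least 89.4-fold higher in KO but at least 16.7-fold without KO replicate 2 (adjusted p = 0.282).

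The Ski flox Control libraries, 2 per subset, were compared with both other genotypes, and edgeR called none of the 10 genes and none of all genes (0.0%) in any of the 6 comparisons. In MHCII-low mTECs Reg3g was at 55.1 and 140.4 CPM, Spink1 at 3.92 and 1.61 CPM and Apoa1 at 5.66 and 0 CPM. Reg3g and Spink1 lay below all 4 Control libraries. The fitted log2 changes against Control were -4.91 ± 2.40, -5.79 ± 2.51 and -5.96 ± 2.71 (SE; each edgeR adjusted p = 0.689), and these 3 genes had an unadjusted p under 0.05 (5.53% of all genes). All 10 means were lower than in Control (a positive change was fitted for 34.2% of all genes), and 4 of 10 genes lay below every Control library (9.31%). KO exceeded Ski flox Control for Reg3g by a log2 change of 4.25 ± 2.27 (edgeR adjusted p = 0.686), and 0 of 10 genes had an unadjusted p under 0.05 in that comparison (6.12%). These are 2 of the 4 libraries low in Krt8 whose H2-Aa went against the MHCII-low label, so no value without them can be given. In MHCII-high mTECs the same genotype had sums of 982.5 and 1682 CPM, inside or just below the 1071 to 2696 CPM of Control, and Reg3g at 709 and 1511 CPM. No gene had an unadjusted p under 0.05 there against Control or KO (1.89% and 3.15%). In cTECs its sums were 54.0 and 6.43 CPM, and 4 genes against Control and 1 against KO had an unadjusted p under 0.05 (4.73% and 4.93%).

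Whether the effect of KO differed between subsets was tested as an interaction. None of the 10 genes passed in any of the 3 tests by edgeR, nor did any other gene (0.0%). The smallest adjusted p was 0.455 for MHCII-high mTECs against cTECs, 0.453 for MHCII-low mTECs against cTECs and 1.0 between the medullary subsets, and at an unadjusted p under 0.05 the counts were 5, 6 and 0 of 10 (7.26%, 7.38% and 6.17% of all genes). DESeq2 called 2, 2 and 0 (1.58%, 1.62% and 0.603% of all genes).

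Wider lists of enterocyte and hepatocyte genes were read beside the 10, medulla against cTEC. The lists, like the 10, were chosen with earlier results of these data known, so their counts and medians are a description. Their counts stand beside 1.07% and 0.703% of all genes called higher in MHCII-high and MHCII-low Control and 12.9% and 5.19% in KO, and their medians beside 0.31 and 0.23 in Control and 0.33 and 0.32 in KO over all genes. Among 23 brush border and surface genes tested, 7 were called higher in each Control comparison and 13 in each KO comparison, with none lower. Cldn7, a tight junction claudin, rose from 14.1 ± 16.3 CPM (SD, n = 5) in Control cTECs to 273 ± 44.1 (n = 4) in MHCII-high and 354 ± 128 (n = 4) in MHCII-low mTECs (edgeR adjusted p = 0.0212 and 0.0172). Krt20, a keratin of differentiated gut epithelium, rose from 0.248 ± 0.554 to 141 ± 129 and 143 ± 135 CPM (adjusted p = 0.00795 and 0.011), and Calml4, a light chain of the brush border adhesion complex, from 1.31 ± 2.16 to 128 ± 51.8 and 141 ± 43.5 CPM (0.00725 and 0.00938). The list's median log2 ratio was 3.99 and 4.65 in Control and 4.34 and 4.45 in KO.

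Among 23 secreted and antimicrobial genes of the gut, 4 were called higher in MHCII-high and 3 in MHCII-low against cTEC Control, and 18 and 9 in KO. Fcgbp, a mucus protein, rose from 2.61 ± 1.72 to 587 ± 287 and 445 ± 390 CPM in Control (edgeR adjusted p = 0.00204 and 0.00366). Itln1, an intelectin, and Tff3, a trefoil peptide, were at 0 in all Control cTEC libraries and at 87.5 ± 30.9 and 99.7 ± 115 CPM in MHCII-high mTECs (at least 867-fold and 988-fold higher; adjusted p = 0.0201 and 0.018). Reg3b, the neighbour and paralogue of Reg3g, was at 0 in all KO cTEC libraries and at 117 ± 107 CPM in MHCII-high KO mTECs (at least 1344-fold higher; adjusted p = 0.00883). The list's medians were 6.57 and 6.27 in Control and 5.84 and 4.86 in KO.

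Of 21 transcription factors tested, 2 and 1 were called higher in Control and 6 and 3 in KO, in MHCII-high and MHCII-low mTECs, and 1 lower in MHCII-low KO. Cdx1, an intestinal homeobox factor, was 377 ± 151 CPM in MHCII-high and 5.22 ± 8.85 in cTEC Control (edgeR adjusted p = 0.0201). Foxa1, a pioneer factor of gut and liver, was 35.4 ± 35.5 and 12.9 ± 4.41 CPM in MHCII-high and MHCII-low Control against 0.0704 ± 0.157 in cTECs (adjusted p = 0.00422 and 0.0167). Gata6 was the factor called lower, at 0 in all 7 MHCII-low KO libraries and 5.53 ± 10.6 CPM in cTEC KO (adjusted p = 0.0366). The list's medians were 4.04 and 2.30 in Control and 3.91 and 2.82 in KO.

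Of 25 lipoprotein and lipid absorption genes tested none was called in Control, and 9 and 4 were called higher in KO, among them the fatty acid binding protein gene Fabp2 at 42 ± 66.9 and 69.9 ± 103 CPM and the hepatic lipase gene Lipc at 29.1 ± 19.6 and 20.5 ± 18.8 CPM, both at 0 in KO cTECs (edgeR adjusted p = 0.0126 and 0.0155 for Fabp2, 0.000602 and 0.00126 for Lipc). Apoe and Cd36, the most abundant genes of this list, are also known from macrophages and endothelium and were not called in Control. In KO Apoe was called higher in MHCII-low mTECs, at 1879.8 ± 3206 against 433 ± 242 CPM (SD, n = 7 each; edgeR adjusted p = 0.0418). Of 27 hepatocyte genes tested none was called in Control, and 11 and 3 were called higher in KO, with Ttr, the thyroxine carrier transthyretin, at 9.70 ± 9.21 and 12.2 ± 16.0 CPM against 0 (adjusted p = 0.0136 and 0.0189). Of 18 digestive enzymes and transporters, 2 and 0 were called higher in Control and 8 and 5 in KO. In sum, however, this list had its highest median in cTECs, at 337 CPM (45.5 to 518, n = 14). The sum had medians of 175 CPM (51.1 to 360) in MHCII-low and 269 CPM (112 to 1298) in MHCII-high mTECs. Mep1a, a brush border meprin, was 54.7 ± 22.2 CPM in MHCII-high Control and at 0 in Control cTECs (at least 542-fold higher; adjusted p = 0.0187). The medians of these 3 lists were 3.76, 5.06 and 3.90 in MHCII-high and 2.95, 2.93 and 2.64 in MHCII-low against cTEC Control, and 3.12, 5.40 and 4.77 and 2.66, 2.54 and 3.10 in KO. Between KO and Control no gene of the 6 lists was called in any subset.

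How the 10 genes ran beside each other across libraries depended on the libraries taken. Over the 45 pairs among them, Spearman's rho of log2(CPM + 1) had a median of 0.04 (range -0.51 to 0.66) over the 13 MHCII-high libraries, with 25 pairs above 0. Over the 13 MHCII-low libraries the median was 0.56 (-0.14 to 0.87), with 43 pairs above 0, and over the 9 of them outside the 4 low ones 0.13 (-0.50 to 0.85), with 29 above 0. The genes outside the set whose levels ran most like its mean log2 level over the 13 MHCII-high libraries were Tnip1 (rho 0.95), Acot8 (0.94), Lad1 (0.92), Kansl3 (0.91) and Clpx (0.90). Over the 13 MHCII-low libraries the same genes had rho of 0.48, 0.04, 0.37, 0.49 and 0.77. These libraries share the 3 genotypes, both sets and their differences in genes detected, and the values are a description.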

How the data were processed

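The authors deposited whole-number read counts per Ensembl gene for each library, made from SMART-Seq v4 cDNA and Nextera XT libraries per the labels' protocols; the kit keeps no strand and no molecular identifiers. Per the submitters' processing notes, FastQC 0.11.3, Picard 1.134, SAMtools 1.2 and HTSeq 0.4.1 were used with GRCm38; the aligner is not given in the sources used here. Symbols, exon lengths and positions came from GENCODE M21 (GRCm38).

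Counts of 40 libraries (3217251 to 7068077 each) were filtered with filterByExpr (smallest group 2), leaving 23040 genes, scaled by TMM and fitted in one model over 9 groups with edgeR 4.0.16 (quasi-likelihood, R 4.3.3), with Benjamini-Hochberg adjustment over all genes in each of 18 contrasts. The fit was tested on simulated counts first. limma 3.58.1 (voom) and DESeq2 1.42.0 were alternatives. A group at 0 was set to 3 counts over the group for "at least" folds. These folds take group means only and hold no measure of the spread between libraries. Replicate numbers follow accession order only. The members and all lists were chosen with earlier results of these data known. All 10 genes are named; from each wider list, up to 4 genes that passed, those of largest mean CPM, or 2 where none passed, and the 5 genes most like the set; other named genes were chosen after their values were seen. One gene of the wider lists that the rule would name is not reported here.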

Additional observations from a re-analysis of the deposited data

Results flagged for a closer look

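Of 52 sets of library values (a gene in a group of 4 to 10 libraries, on the log2(CPM + 1) scale), 9 held a library far from the others by Dixon's 95% criterion, which chance does in about 1 of 20 sets of normally spread values. In 5 of them a cTEC library was the highest of a group otherwise at or near 0: Apoa1 at 10.6 CPM in KO replicate 3, Apoa4 at 5.51 CPM in Control replicate 3, Muc13 at 1.32 CPM in Control replicate 2, Hnf4a at 1.84 CPM in KO replicate 4 and Vil1 at 26.9 CPM in KO replicate 2. In the medulla the highest libraries were Apob at 43.7 CPM in MHCII-low KO replicate 4, Hnf4a at 2.70 CPM in MHCII-low KO replicate 3 and Hnf4a at 2.28 CPM in MHCII-high Control replicate 4. One library was the lowest, MHCII-high Control replicate 4 for Apoa1, at 13.4 CPM. Where every other library of a group is at 0, the criterion flags the library with counts in any case. This was so for Apoa1 and Hnf4a in cTEC KO, Apoa4 and Muc13 in cTEC Control and Hnf4a in MHCII-high Control. The 9 flagged sets are therefore not read against the rate of 1 of 20.

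The left-out MHCII-high Control replicate 2, with 41828 counts in all, held 7 counts of Spink1, or 167 CPM of its total against at most 99.1 CPM in the kept libraries of its group. It also held 74 counts of Reg3g and none of the other 8 genes.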

How the results depend on the processing

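No paired analysis was made, because the labels give no replicate number shared across groups and tie no libraries to one mouse. Library numbers run through the 3 subsets in turn, and a fit blocked on such runs could have been tried but was not made. The subsets were therefore compared as unpaired. The 4 counts of genes called between medulla and cTEC (3, 3, 7 and 6: MHCII-high and MHCII-low Control, MHCII-high and MHCII-low KO) moved most; shares in brackets are of all genes called higher in the same fit. In MHCII-high Control the count was 7 with limma voom (8.02%), 5 with the set as a term (2.43%), 0 in the early set (0.0199%), 7 with both control genotypes pooled (10.5%), 8 with DESeq2 (6.58%) and 1 without 4 libraries high in B cell markers (0.394%), an alternative chosen after seeing the data. In MHCII-low Control it was 5 with a filter of 10 CPM in 5 libraries (2.36%), 7 with limma voom (4.28%), 5 with the set as a term (1.06%), 0 in the early set (0.00498%), 6 with pooled controls (4.36%) and 7 with DESeq2 (5.5%). In KO, early libraries gave 2 (0.812%) and late ones 4 (2.43%) for MHCII-high, and 2 (0.189%) and 3 (1.21%) for MHCII-low, where a fit of only the groups compared gave 1 (0.387%). Leaving out 1 library gave 1 to 3, 2 to 4, 6 to 8 and 5 to 8. For KO against Control in cTECs the count of 0 became 1 without a count filter (0.00531% of all genes in either direction), 1 with 10 CPM in 5 libraries (0.0146%), 4 with DESeq2 (2.26%) and 0 to 1 leaving out 1 library. DESeq2 gave 2 for each Ski flox Control comparison in cTECs (4.48% against KO and 4.12% against Control), 1 for Ski flox Control against Control in MHCII-low mTECs (3.36%) and 2 for each interaction with cTECs (1.58% and 1.62%); all other counts stayed at 0 in every alternative run. Early and late fits hold fewer libraries; the cause of the other moves was not tested. Fold changes were recomputed 1154 times for 48 folds, mostly medulla against cTEC. Most folds between genotypes or between the medullary subsets, and all interactions, were not among them. Of the 1154, 1004 were labelled the same, 78 weaker, 71 stronger and 1 reversed. The reversed one was Hnf4a in MHCII-low KO against cTEC. It was -1.04 without MHCII-low KO replicate 3 and 4.31 without cTEC KO replicate 4, the range over fits without 1 library. Not every large change passed: the log2 change of 4.17 ± 1.82 (SE) for Apoa4, MHCII-high against cTEC Control, did not (edgeR adjusted p = 0.184).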
